A study of Saccharomyces cerevisiae with 18 samples.

Results

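The comparison described here is the deletion of *IOC3* in budding yeast that already lacked Yaf9. It set 3 *ioc3*Δ *yaf9*Δ RNA-seq libraries against 3 *yaf9*Δ libraries, which were picked by their strain labels and were 6 of the 18 libraries of the series. The other strains, with 3 libraries each, were wild type, *ioc3*Δ, a strain whose Ioc3 lacked part of its HLB domain (*ioc3*Δ*cHLB*) and that truncation in cells without Yaf9 (*ioc3*Δ*cHLB* *yaf9*Δ). Both strains compared carried the *YAF9* deletion, and they differed by the labels only in *IOC3*. By the labels all strains also shared the BY4742 background, a FLAG epitope tag and growth in YPD, a rich glucose medium, and each library came from an independent culture.

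Ioc3 joins the ATPase Isw1 to form ISW1a, a chromatin remodeler of the ISWI family that slides and spaces nucleosomes, and its HLB domain contacts the DNA between them. Yaf9 is a YEATS domain protein that binds modified histone tails and belongs to both NuA4, which acetylates histones H4 and H2A, and SWR1, which installs the histone variant H2A.Z (gene *HTZ1*) at nucleosomes flanking promoters. The comparison asked which transcripts depended on Ioc3 when cells also lacked this shared subunit of NuA4 and SWR1.

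The table held CPM, that is, counts of reads relative to a library size that the authors had scaled. The 6 libraries held 6474579 to 8432151 reads assigned to genes, so that 1 read was worth 0.123 to 0.156 CPM, and values at 0 allowed up to 3 reads, or 0.368 to 0.469 CPM. *IOC3* was at 47.0, 49.4 and 50.7 CPM in the *yaf9*Δ libraries and at 0.136, 0 and 0 CPM in the *ioc3*Δ *yaf9*Δ libraries, which was 1169 reads against 1 (ratio of the CPM behind them 1075, exact 95% interval 192.5 to 42490, counting error only). *YAF9* had 3 reads in 1 *yaf9*Δ library and none in the other 5. The BY4742 label was checked against mating-type and marker genes. Over all 18 libraries *STE2*, the alpha-factor receptor of a cells, ran from 670 to 1054 CPM, and *MF(ALPHA)1*, a pheromone gene of alpha cells, from 0.512 to 4.20 CPM. Reads were present in every library for *HIS3*, *LEU2*, *LYS2* and *URA3*. The values of *STE2*, *MF(ALPHA)1*, *LEU2*, *LYS2* and *URA3* go against BY4742, which is an alpha strain with mutations in those 4 marker genes, and they did so in both strains compared. The *HIS3* reads were not counted in this, since a gene with a partial deletion can still give reads.

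Of 5786 genes tested, 561 were called, that is, they had an adjusted p under 0.1 (limma, Benjamini-Hochberg) and a change of at least 1.5-fold on the log2(CPM + 1) scale. This was 9.70% of the genes tested, with 204 (3.53%) higher and 357 (6.17%) lower in *ioc3*Δ *yaf9*Δ. The median change over all genes was 0.01 on the log2 scale. The 3 libraries of each strain did not overlap for 548 of the called genes, and for 42.8% of all tested genes. Changes of at least 2-fold numbered 170, and 31 of them were at least 4-fold. The count rested partly on *ioc3*Δ *yaf9*Δ replicate 1, without which 320 genes were called (101 higher and 219 lower). The count of higher genes was 120 without *yaf9*Δ replicate 1 and 132 without *yaf9*Δ replicate 2. In RNA from a whole culture, fewer cells making a transcript and less transcript per cell cannot be told apart.

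Genes for membrane transport out of the cell were among the largest increases. *PDR5*, the main drug efflux pump of the ABC family, was at 622, 538 and 628 CPM in *yaf9*Δ and at 3308, 2313 and 3354 CPM in *ioc3*Δ *yaf9*Δ (log2 change 2.31 ± 0.18, SE; adjusted p = 1.1e-06). *RSB1*, which is tied to the export of sphingoid bases, went from 1.57, 1.11 and 1.36 CPM to 43.4, 19.7 and 28.2 CPM, the largest increase of all (3.68 ± 0.32, adjusted p = 3.36e-06). *PDR15*, an ABC transporter closely related to Pdr5, went from 30.3, 22.4 and 25.6 CPM to 104, 70.7 and 81.9 CPM (1.67 ± 0.21, adjusted p = 8.26e-05). In all 3 genes every *ioc3*Δ *yaf9*Δ library lay far above every *yaf9*Δ library, with replicate 2 the lowest of the 3. *CIS1*, a small protein gene induced with the drug pumps, rose from 2.48, 2.73 and 2.23 CPM to 17.8, 11.7 and 33.1 CPM (2.54 ± 0.29, adjusted p = 3.51e-05). These genes belong to a list of 15 targets of Pdr1 and Pdr3, the zinc cluster activators of multidrug resistance. On that list 5 of 15 were called higher and 1 lower, against 3.53% and 6.17% of all genes, and the list's median change was 0.09. The other members called, picked after their values were seen, were *PDR3* itself, which rose by 0.95 ± 0.14 (adjusted p = 0.000487), and *PDR10*, another ABC transporter, which fell by 0.93 ± 0.18 (adjusted p = 0.00334). The remaining 9 members, among them *PDR1* (0.07) and the pumps *SNQ2* (-0.33) and *YOR1* (-0.35), were not called. The count of members higher was 5 without any 1 of the 6 libraries.

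Pdr1 and Pdr3 bind the Pdr1/Pdr3 element, searched here as TCCGNGGA on both strands. Within 400 to 101 bases before the start codon it occurred in 7 of the 15 list members and in 5 of the 6 called members, against 2.10% of 5631 such windows over all genes. Extending the window to the 600 bases before the start codon gave 12 of 15 members and 3.53% of all windows. The stretches around 1 match each in 3 of the genes that rose, chosen after the values were seen, are printed to show the element, which is in capitals, 5′ to 3′ on the gene's strand (sacCer3, RefSeq genome). *RSB1*, the gene that rose most, had no match in its 600 bases.
*PDR5* (chrXV:619501-619560, plus strand): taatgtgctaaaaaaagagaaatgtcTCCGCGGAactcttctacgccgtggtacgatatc
*PDR15* (chrIV:1278805-1278864, plus strand): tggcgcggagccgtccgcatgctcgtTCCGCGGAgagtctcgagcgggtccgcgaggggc
*CIS1* (chrXII:822884-822943, minus strand): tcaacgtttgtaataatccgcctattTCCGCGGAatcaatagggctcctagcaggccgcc
*PDR5* had 4 matches, at 563, 491, 375 and 313 bases before its start codon, and *PDR15* and *CIS1* had 1 each, at 379 and 325 bases. The match is a description of the letters and does not show a binding site.

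**Figure D1:**
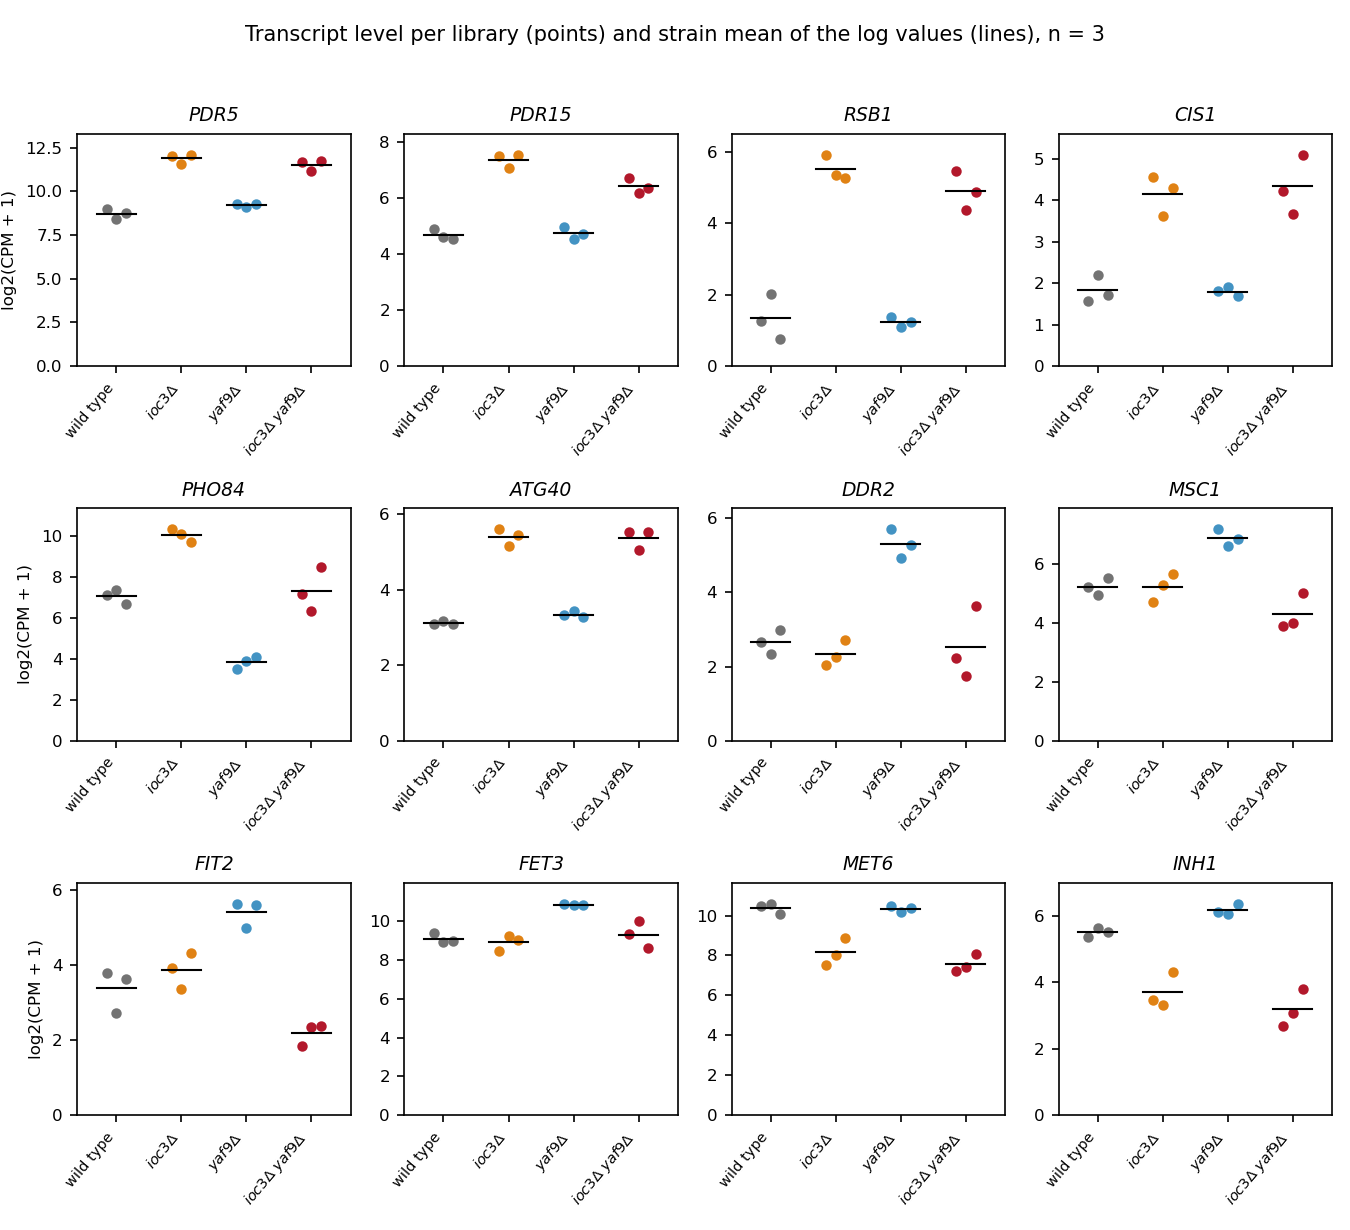
Transcript level in log2(CPM + 1) of 12 genes in each library of wild type, *ioc3*Δ, *yaf9*Δ and *ioc3*Δ *yaf9*Δ; points are libraries and lines are strain means of 3. *PDR5*, *PDR15*, *RSB1*, *CIS1*, *PHO84* and *ATG40* lay higher in *ioc3*Δ *yaf9*Δ than in *yaf9*Δ in every library, and *DDR2*, *MSC1*, *FIT2*, *FET3*, *MET6* and *INH1* lay lower in every library. All but *FET3* were picked among genes without overlap between these 2 strains.

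Outside the drug resistance list the largest increase was that of *PHO84*, the high-affinity phosphate transporter, which went from 10.2, 14.1 and 15.8 CPM to 144, 81.5 and 358 CPM (3.52 ± 0.46, adjusted p = 0.000124). The *ioc3*Δ *yaf9*Δ libraries differed widely among themselves for *PHO84*, and the lowest of them was still above the highest *yaf9*Δ library. *OSI1*, an oxidoreductase-like stress gene, rose from 4.96, 3.22 and 3.83 CPM to 30.9, 20.6 and 62.1 CPM (2.83 ± 0.32, adjusted p = 3.20e-05). Of 20 phosphate genes, 6 were called higher (30%, against 3.53% of all genes) and none lower, with a median of 0.16. The others were small next to *PHO84*: *SPL2*, a regulator of phosphate transport, at 0.90, *PHM6* at 0.88, and the acid phosphatase *PHO5* at 0.82 on the log2 scale. The *PHO5* call was lost when any of the 6 libraries except *ioc3*Δ *yaf9*Δ replicate 2 was left out, and the *SPL2* call without *yaf9*Δ replicate 1, *yaf9*Δ replicate 3 or *ioc3*Δ *yaf9*Δ replicate 1. The list's count was 3 without *yaf9*Δ replicate 1, *yaf9*Δ replicate 3, *ioc3*Δ *yaf9*Δ replicate 1 or *ioc3*Δ *yaf9*Δ replicate 3. *PHO84* was called without any 1 of the 6.

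Genes with several other roles were also among the largest increases. *INA1*, a membrane protein gene, was at 180, 126 and 211 CPM in *yaf9*Δ and at 1226, 610 and 1195 CPM in *ioc3*Δ *yaf9*Δ (2.51 ± 0.39, adjusted p = 0.000676). *FAA4*, a long-chain fatty acyl-CoA synthetase, rose from 142, 118 and 158 CPM to 964, 459 and 726 CPM (2.30 ± 0.41, adjusted p = 0.00183). *PRM2*, a pheromone-regulated membrane protein, rose from 1.57, 1.36 and 1.48 CPM to 9.92, 7.19 and 13.2 CPM (2.13 ± 0.27, adjusted p = 0.000103). On the list of 30 pheromone and mating genes, 2 were called higher and 2 lower with a median of -0.08 (4 higher and 1 lower without *ioc3*Δ *yaf9*Δ replicate 2). Each of these 2 counts was 6.67% of the list, against 3.53% of all genes higher and 6.17% lower. By the rule of choice no *ioc3*Δ *yaf9*Δ library of *INA1*, *FAA4* or *PRM2* fell within the *yaf9*Δ range. Among the *ioc3*Δ *yaf9*Δ libraries replicate 2 was the lowest each time. *ATG40*, the receptor for autophagy of the endoplasmic reticulum, was nearly constant within strains, at 9.01, 9.78 and 8.65 CPM in *yaf9*Δ and 45.0, 32.0 and 45.3 CPM in *ioc3*Δ *yaf9*Δ (2.03 ± 0.16, adjusted p = 2.05e-06). *DPI8* rose by 1.99 ± 0.44 (adjusted p = 0.00785). *PUT1*, the proline oxidase of mitochondria, rose by 1.59 ± 0.32 (adjusted p = 0.00458), and *DAL80*, a repressor of nitrogen catabolite genes, by 1.56 ± 0.27 (adjusted p = 0.00126). Another pair of named increases were weaker. *TIP1*, a cell wall mannoprotein, went from 151, 113 and 168 CPM to 913, 523 and 448 CPM (2.06 ± 0.77, adjusted p = 0.0852). Its adjusted p passed 0.1 when any of the 3 *yaf9*Δ libraries, *ioc3*Δ *yaf9*Δ replicate 1 or *ioc3*Δ *yaf9*Δ replicate 2 was left out (0.148 to 0.267). The error pools all strains, and *TIP1* varied widely in wild type (69.1, 598 and 56.1 CPM) and in *ioc3*Δ*cHLB* (129, 413 and 1396 CPM). *TAR1*, which lies antisense within the repeated ribosomal DNA, had 14.7 CPM in *ioc3*Δ *yaf9*Δ replicate 2 and 1.63 and 0.859 CPM in the other *ioc3*Δ *yaf9*Δ libraries. Its change of 1.63 (adjusted p = 0.0544) was 0.69 without that library (adjusted p = 0.185) and 2.23 without *ioc3*Δ *yaf9*Δ replicate 3, and its adjusted p was 0.113 to 0.150 without 1 of the *yaf9*Δ libraries.

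Many genes induced by environmental stress through the activators Msn2 and Msn4 fell. *DDR2*, a multistress response gene, was at 51.1, 29.2 and 38.2 CPM in *yaf9*Δ and at 3.67, 2.35 and 11.4 CPM in *ioc3*Δ *yaf9*Δ (-2.77 ± 0.37, adjusted p = 0.000148). *MSC1*, a stress-induced gene of mitochondria, fell from 144, 97.0 and 114 CPM to 13.9, 14.8 and 31.3 CPM (-2.58 ± 0.30, adjusted p = 4.47e-05). *CTT1*, the cytosolic catalase, fell from 55.9, 39.5 and 55.5 CPM to 12.4, 6.25 and 14.0 CPM (-2.16 ± 0.36, adjusted p = 0.00102). The strains did not overlap for any of them, and *ioc3*Δ *yaf9*Δ replicate 3 was the highest *ioc3*Δ *yaf9*Δ library for all 3. *GAD1*, a glutamate decarboxylase used under oxidative stress, fell by 2.10 ± 0.36 (adjusted p = 0.00135), and *SPI1*, a cell wall protein gene of weak acid stress, fell by 2.25 ± 0.54 (adjusted p = 0.0129). *ALD3*, a stress-induced aldehyde dehydrogenase with a near-identical paralog, fell by 1.86 ± 0.20 (adjusted p = 2.99e-05). Of the 28 list members, 17 were called lower (60.7%, against 6.17% of all genes) and none higher, with a median of -0.92. The count was 11 without *ioc3*Δ *yaf9*Δ replicate 1.

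In the *ioc3*Δ *yaf9*Δ strain, replicate 3 stood apart for the 2 small heat shock protein genes followed throughout. *HSP12*, which codes for a membrane-stabilizing protein, was at 1428, 1042 and 1142 CPM in *yaf9*Δ and at 54.6, 13.4 and 416 CPM in *ioc3*Δ *yaf9*Δ, a difference of -4.10 ± 1.70 that was not called (adjusted p = 0.115). *HSP12* also varied widely in wild type (452, 6.79 and 341 CPM) and in *ioc3*Δ (51.5, 7.43 and 893 CPM), so its spread was not confined to *ioc3*Δ *yaf9*Δ. *HSP26*, which codes for a chaperone, was at 152, 69.2 and 106 CPM and at 4.62, 5.16 and 55.4 CPM. Its change of -3.07 ± 0.90 (adjusted p = 0.0346) was -4.15 without *ioc3*Δ *yaf9*Δ replicate 3, and its adjusted p was 0.125 without *yaf9*Δ replicate 1, 0.164 without *ioc3*Δ *yaf9*Δ replicate 1 and 0.129 without *ioc3*Δ *yaf9*Δ replicate 2. The stress genes together, as the median of the list in each library relative to the *yaf9*Δ mean, were at -1.32, -1.26 and -0.53 on the log2 scale in the 3 *ioc3*Δ *yaf9*Δ libraries and at -1.19, -0.76 and -0.94 in wild type. The *yaf9*Δ strain thus had the highest level of these genes among these strains, with *DDR2* at 39.5 ± 11.0 CPM (SD, n = 3) in *yaf9*Δ, 5.43 ± 1.41 in wild type and 5.81 ± 4.90 in *ioc3*Δ *yaf9*Δ. Summed over the list, *yaf9*Δ libraries had 3317 to 4282 CPM, wild-type libraries 1091 to 1746 CPM and *ioc3*Δ *yaf9*Δ libraries 680.2 to 1746 CPM.

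Msn2 and Msn4 bind the stress response element, searched as AGGGG on both strands (CCCCT on the other). It occurred between 400 and 101 bases before the start codon in 26 of 28 list members (92.9%) and in all 17 that were called, against 23.7% of 5631 windows over all genes. The windows of 4 stress genes that fell are given because the list had the most members called in a single direction among lists with a known motif, with every AGGGG or CCCCT in capitals, 5′ to 3′ on the gene's strand (sacCer3, RefSeq genome).
*HSP26* (chrII:381630-381929, plus strand): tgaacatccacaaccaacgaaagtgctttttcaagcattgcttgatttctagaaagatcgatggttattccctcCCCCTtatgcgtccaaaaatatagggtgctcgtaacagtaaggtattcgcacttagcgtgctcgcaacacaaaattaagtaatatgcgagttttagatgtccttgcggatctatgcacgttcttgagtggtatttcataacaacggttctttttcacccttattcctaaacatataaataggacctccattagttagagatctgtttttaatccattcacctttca
*DDR2* (chrXV:231856-232155, minus strand): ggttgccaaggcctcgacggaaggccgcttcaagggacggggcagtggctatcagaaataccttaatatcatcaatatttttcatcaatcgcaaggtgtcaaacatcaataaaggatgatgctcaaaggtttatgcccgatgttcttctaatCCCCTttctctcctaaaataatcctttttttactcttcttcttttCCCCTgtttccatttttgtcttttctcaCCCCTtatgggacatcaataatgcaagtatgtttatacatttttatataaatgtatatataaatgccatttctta
*MSC1* (chrXIII:16777-17076, minus strand): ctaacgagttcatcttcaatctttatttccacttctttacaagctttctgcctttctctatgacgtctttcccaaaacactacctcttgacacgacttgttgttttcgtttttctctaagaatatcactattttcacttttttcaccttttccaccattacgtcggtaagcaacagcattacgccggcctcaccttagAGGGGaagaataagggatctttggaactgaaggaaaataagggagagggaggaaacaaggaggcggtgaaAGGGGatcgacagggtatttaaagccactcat
*SPI1* (chrV:467970-468269, plus strand): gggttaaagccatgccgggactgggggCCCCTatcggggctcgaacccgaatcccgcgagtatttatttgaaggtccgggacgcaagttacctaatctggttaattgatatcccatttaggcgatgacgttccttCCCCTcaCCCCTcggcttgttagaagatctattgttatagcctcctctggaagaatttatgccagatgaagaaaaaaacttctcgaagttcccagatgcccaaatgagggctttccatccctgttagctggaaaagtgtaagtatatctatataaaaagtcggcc
*HSP26* held 1 match, *MSC1* held 2, and *DDR2* and *SPI1* held 3 each. No statement on the binding of the factors follows from the matches.

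**Figure D2:**
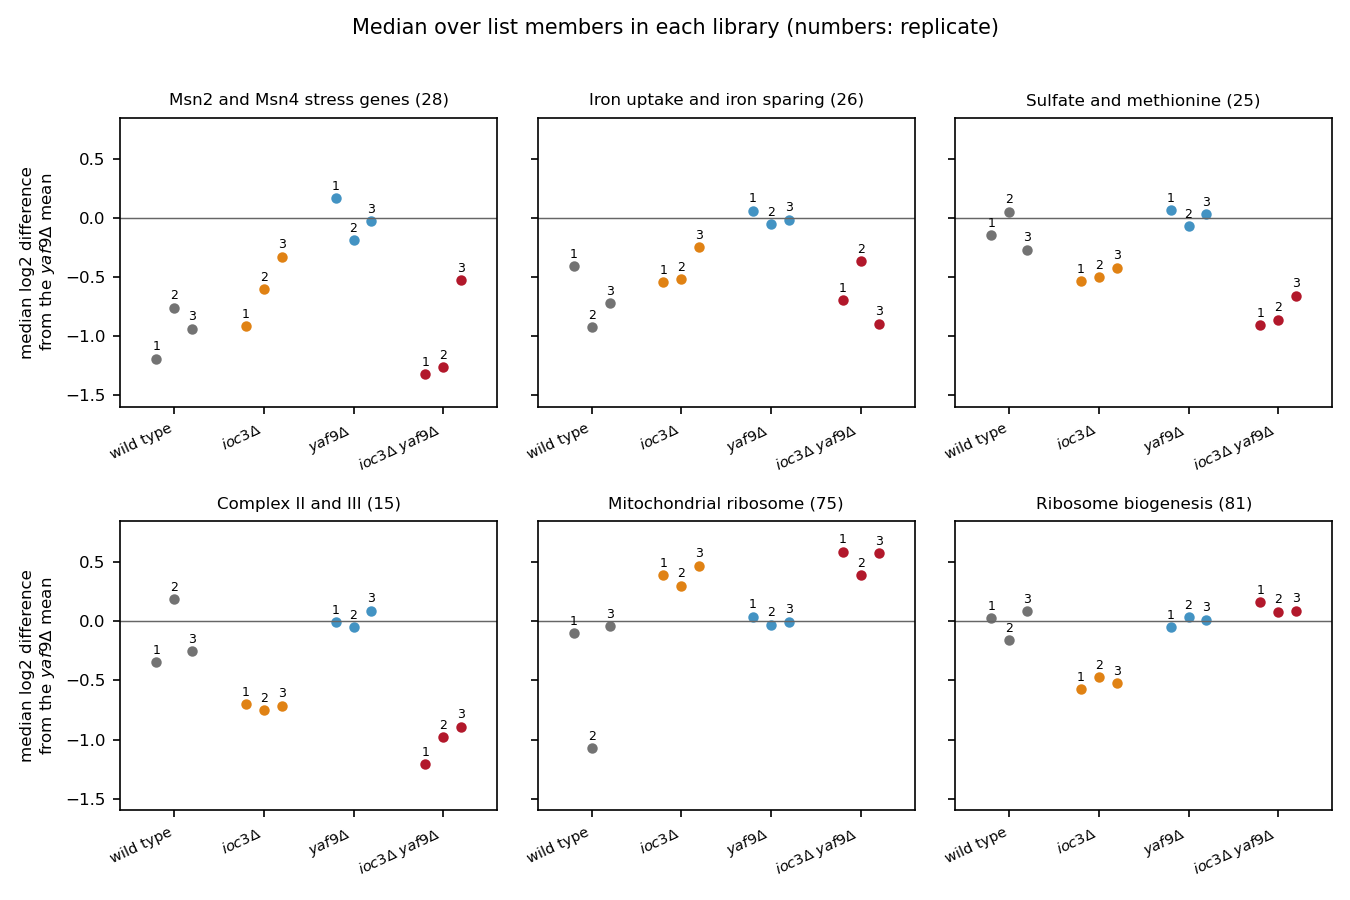
Median over the tested members of 6 gene lists in each library, as the log2 difference from the *yaf9*Δ mean; points are libraries, numbered by replicate, and the number of genes stands in the panel titles. Stress genes lay at -1.32, -1.26 and -0.53 in the *ioc3*Δ *yaf9*Δ libraries, and the mitochondrial ribosome at 0.59, 0.39 and 0.58, all apart from the *yaf9*Δ libraries.

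Genes of iron uptake fell as well. *FIT2*, a cell wall mannoprotein that retains iron bound to siderophores, was at 48.2, 30.6 and 47.6 CPM in *yaf9*Δ and at 2.58, 4.07 and 4.17 CPM in *ioc3*Δ *yaf9*Δ (-3.22 ± 0.28, adjusted p = 3.36e-06). Its neighbour *FIT3*, 448 bases away and of the same kind, fell from 56.5, 35.7 and 55.6 CPM to 16.9, 19.4 and 19.1 CPM (-1.34 ± 0.22, adjusted p = 0.00082). *FET3*, the multicopper oxidase of high-affinity iron uptake, fell from 1892, 1804 and 1855 CPM to 640, 1017 and 394 CPM (-1.54 ± 0.31, adjusted p = 0.00404). The *ioc3*Δ *yaf9*Δ libraries were below the *yaf9*Δ libraries for all 3 genes, and the *FET3* values in *ioc3*Δ *yaf9*Δ spread over more than 2-fold while those in *yaf9*Δ differed little. *FRE4*, a ferric reductase, fell by 1.92 ± 0.41 (adjusted p = 0.00597). Of 26 genes of iron uptake and iron sparing, 13 were called lower (50%, against 6.17% of all genes) and none higher (median -0.78). Those lower included the permease *FTR1* (-1.28), the reductase *FRE1* (-1.26), the siderophore transporter *ARN1* (-1.16) and *TIS11* (-1.23), which degrades messages in iron shortage. The *FRE1* and *TIS11* calls were lost without *yaf9*Δ replicate 1, *yaf9*Δ replicate 3 or *ioc3*Δ *yaf9*Δ replicate 1, and also without *ioc3*Δ *yaf9*Δ replicate 2 for *FRE1* and *ioc3*Δ *yaf9*Δ replicate 3 for *TIS11* (adjusted p 0.119 to 0.218). The regulators *AFT1* (-0.04) and *AFT2* (-0.07), which activate these genes in iron shortage, were not called. The Aft1 core TGCACC, on either strand, was in the windows of 18 of 26 members and 12 of the 13 called, against 7.64% of all windows. Here too *yaf9*Δ held the highest level, since the list's summed CPM was 4514 to 4876 in *yaf9*Δ, 2004 to 2949 in *ioc3*Δ *yaf9*Δ and 2089 to 2548 in wild type.

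Sulfate assimilation and methionine synthesis fell by similar amounts. *MET6*, which makes methionine from homocysteine, was at 1423, 1154 and 1351 CPM in *yaf9*Δ and at 148, 172 and 265 CPM in *ioc3*Δ *yaf9*Δ (-2.78 ± 0.28, adjusted p = 1.29e-05). *MET17*, which makes homocysteine, fell from 1114, 854 and 1029 CPM to 192, 166 and 392 CPM (-2.10 ± 0.42, adjusted p = 0.00396). *MET3*, the ATP sulfurylase, fell from 135, 104 and 129 CPM to 32.6, 30.3 and 40.0 CPM (-1.81 ± 0.23, adjusted p = 8.44e-05). The lowest *yaf9*Δ library was more than 2-fold above the highest *ioc3*Δ *yaf9*Δ library for each of the 3. *SAM2*, an S-adenosylmethionine synthetase with a close paralog, fell by 1.72 ± 0.29 (adjusted p = 0.00128), and *MET16*, which reduces activated sulfate, by 0.79 ± 0.14 (adjusted p = 0.00147). Of the 25 genes on this list 16 were called lower (64%, against 6.17% of all genes), none higher, and the median was -0.79. The Met31/Met32 site TGTGGC, on either strand, was in the windows of 16 of 25 members and of 13 of the 16 called, against 9.15% of all windows. *MET28* (0.01), a cofactor of the pathway's activator, and the sulfate transporter *SUL1* (0.30) were not called.

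Genes of the Ehrlich pathway and of aldehyde oxidation were among the other decreases. *ARO10*, the decarboxylase of the Ehrlich pathway of aromatic amino acid breakdown, was at 157, 148 and 155 CPM in *yaf9*Δ and at 14.4, 24.6 and 25.5 CPM in *ioc3*Δ *yaf9*Δ (-2.82 ± 0.26, adjusted p = 3.67e-06). *ARO9*, the transaminase before it in that pathway, fell from 149, 136 and 156 CPM to 23.8, 35.0 and 39.1 CPM (-2.16 ± 0.21, adjusted p = 6.65e-06). The highest *ioc3*Δ *yaf9*Δ library lay far below the lowest *yaf9*Δ library for both. The proline permease *PUT4* fell by 1.83 ± 0.47 (adjusted p = 0.0175) while the proline oxidase *PUT1* rose. On the list of 30 nitrogen catabolite genes, 5 rose and 3 fell, the 3 being *ARO10*, *ARO9* and *PUT4*, and the median was 0.16. *ALD6*, the cytosolic aldehyde dehydrogenase that supplies acetate, fell from 2099, 2205 and 2190 CPM to 236, 470 and 346 CPM (-2.68 ± 0.34, adjusted p = 8.94e-05). *ALD4*, its mitochondrial counterpart, fell from 167, 155 and 161 CPM to 24.1, 22.0 and 57.3 CPM (-2.33 ± 0.47, adjusted p = 0.00428). With *ALD3* and *PDC1* they were 4 of the 5 members called lower among 29 genes of glycolysis and fermentation, where none was called higher and the median was -0.06. The *PDC1* call was lost when any of the 6 libraries except *ioc3*Δ *yaf9*Δ replicate 3 was left out (adjusted p 0.107 to 0.200). *GPH1*, the glycogen phosphorylase, fell from 119, 79.1 and 99.8 CPM to 6.93, 7.50 and 19.5 CPM (-3.15 ± 0.52, adjusted p = 0.00091). On the list of 20 trehalose and glycogen genes 4 were called lower, and 1 or 2 without *yaf9*Δ replicate 1, *yaf9*Δ replicate 2, *ioc3*Δ *yaf9*Δ replicate 1 or *ioc3*Δ *yaf9*Δ replicate 2. Beside the counts on these lists, 3.53% of all genes were called higher and 6.17% lower.

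The rest of the 15 largest decreases were a mixed group. *EGO4*, a small gene of unknown function, was at 62.7, 33.8 and 48.8 CPM in *yaf9*Δ and at 2.04, 2.35 and 11.1 CPM in *ioc3*Δ *yaf9*Δ (-3.27 ± 0.59, adjusted p = 0.002), and its change was -3.91 without *ioc3*Δ *yaf9*Δ replicate 3. *DAN1*, a cell wall mannoprotein gene of anaerobic growth, was low in both strains, at 5.22, 5.95 and 8.16 CPM against 0.272, 0.156 and 0.368 CPM (-2.54 ± 0.39, adjusted p = 0.000615). *BSC1* had a change of -2.71 ± 1.07 with an adjusted p of 0.0996, which was 0.14 by both edgeR and DESeq2 on reads. Without *ioc3*Δ *yaf9*Δ replicate 2 its change was -1.95 (adjusted p = 0.318), and without *ioc3*Δ *yaf9*Δ replicate 1 or 1 of the *yaf9*Δ libraries its adjusted p was 0.192 to 0.204.

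Transcripts for the respiratory chain fell together. *INH1*, the inhibitor of the ATP synthase, was at 67.9, 65.6 and 80.3 CPM in *yaf9*Δ and at 5.44, 7.35 and 12.9 CPM in *ioc3*Δ *yaf9*Δ (-2.99 ± 0.26, adjusted p = 3.36e-06). *QCR10*, a subunit of complex III, fell from 71.7, 69.4 and 84.9 CPM to 19.3, 22.7 and 23.1 CPM (-1.75 ± 0.20, adjusted p = 4.48e-05). *COX4*, a subunit of cytochrome c oxidase, fell from 232, 220 and 247 CPM to 64.2, 80.2 and 87.9 CPM (-1.59 ± 0.20, adjusted p = 8.26e-05). Replicates were tight in both strains for *QCR10* and *COX4*, and no library overlapped. Among 15 genes of complexes II and III 12 were called lower (median -0.96), among 12 of cytochrome c oxidase and cytochrome c 10 were (median -1.05), and among 17 of the ATP synthase 13 were (median -0.89). No member of these 3 lists was called higher, and over all genes 6.17% were called lower. *ATP2*, the beta subunit of the ATP synthase, fell by 1.25 ± 0.16 (adjusted p = 0.000119), the Rieske protein *RIP1* by 1.22 ± 0.18 (adjusted p = 0.000348) and the succinate dehydrogenase subunit *SDH2* by 1.13 ± 0.28 (adjusted p = 0.0161). The members at or above 0 were *BCS1* (0.48) and *CBP3* (0.34), which assemble complex III, *CYC1* (0.22), the main cytochrome c, and *COX26* (0.48). The CCAAT box, bound by the Hap2/3/4/5 complex that activates respiratory genes, was in 13 of 15 windows of complexes II and III, against 44.0% of all windows. *HAP4*, the activating subunit of that complex, had a value of -0.23 and was not called.

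Mitochondrial translation moved the other way. Of 75 genes of the mitochondrial ribosome, 19 were called higher (25.3%, against 3.53% of all genes) and none lower, 73 had a positive value, and the median was 0.52. *MRPL4*, of the large subunit, was at 88.0, 75.9 and 88.1 CPM in *yaf9*Δ and at 184, 156 and 151 CPM in *ioc3*Δ *yaf9*Δ (0.95 ± 0.21, adjusted p = 0.00724). *MRP20*, also of the large subunit, rose from 81.2, 75.4 and 82.6 CPM to 175, 161 and 116 CPM (0.89 ± 0.15, adjusted p = 0.000905). The count moved with single libraries. It was 3 or 4 without 1 of the *yaf9*Δ libraries, 2 without *ioc3*Δ *yaf9*Δ replicate 1 and 8 without *ioc3*Δ *yaf9*Δ replicate 3. At an adjusted p under 0.05 it was also 8. The list's median in each library relative to the *yaf9*Δ mean was 0.59, 0.39 and 0.58 on the log2 scale in *ioc3*Δ *yaf9*Δ and between -0.03 and 0.04 in *yaf9*Δ. Wild-type replicate 2 stood apart on this list, at -1.07 beside -0.10 and -0.04 in the other wild-type libraries. Of 23 mitochondrial aminoacyl-tRNA synthetases and translation factors 8 were higher and 1 lower, *MEF2* (-1.15), with a median of 0.40. That count was 2 or 3 without 1 of the *yaf9*Δ libraries or *ioc3*Δ *yaf9*Δ replicate 3, and 0 without *ioc3*Δ *yaf9*Δ replicate 1.

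**Figure D3:**
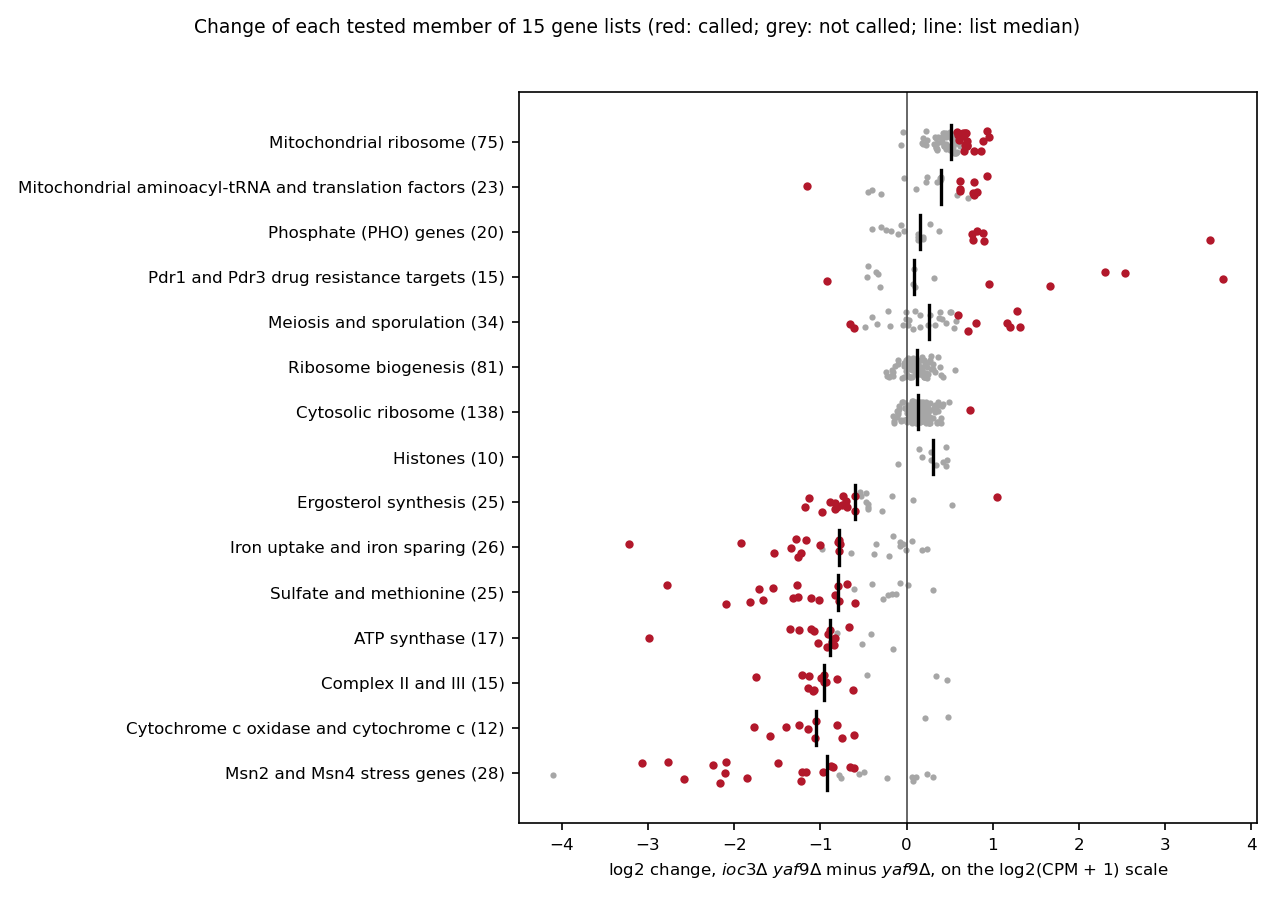
Log2 change (*ioc3*Δ *yaf9*Δ minus *yaf9*Δ, log2(CPM + 1) scale) of every tested member of 15 gene lists, with the number tested in parentheses; points are genes, red where called and grey where not, and bars are list medians. The respiratory, stress, iron and methionine lists have medians between -1.05 and -0.78, and the mitochondrial ribosome 0.52.

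In ergosterol synthesis 13 of 25 genes were called lower, led by *ERG10* (-1.18) and the HMG-CoA reductase *HMG1* (-1.13), and 1 higher, the sterol regulator *ECM22* (1.05 ± 0.21, adjusted p = 0.00364). The count of lower genes was 8 without *yaf9*Δ replicate 1, 8 without *yaf9*Δ replicate 3 and 6 without *ioc3*Δ *yaf9*Δ replicate 1. Among 34 meiosis and sporulation genes 7 were higher and 2 lower, with *SPO22* at 4.57, 3.96 and 4.57 CPM in *yaf9*Δ and 11.7, 11.3 and 14.5 CPM in *ioc3*Δ *yaf9*Δ (1.32 ± 0.17, adjusted p = 0.000114). The meiotic axis gene *HOP1*, which neighbours *SPO22*, rose by 1.21 ± 0.16 (adjusted p = 0.000114), and the spore wall gene *DIT1* by 1.28 ± 0.23 (adjusted p = 0.00207). Of 29 glucose-repressed genes 6 were higher and 1 lower, with the gluconeogenic *PCK1* at 1.23 and its activator *CAT8* at 0.92, and the count of higher genes was 2 without *yaf9*Δ replicate 1, 3 without *yaf9*Δ replicate 3 and 3 without *ioc3*Δ *yaf9*Δ replicate 1. Of 24 cell wall mannoprotein genes 7 were lower and 2 higher. The lower count was 4 without *ioc3*Δ *yaf9*Δ replicate 1, and the higher count was 0 or 1 without any of the libraries other than *ioc3*Δ *yaf9*Δ replicate 3. Over all genes 3.53% were called higher and 6.17% lower. The shares of lower genes on the meiosis (5.88%) and glucose-repressed (3.45%) lists did not exceed that. The glucose transporter *HXT2* fell from 552, 634 and 564 CPM to 164, 161 and 308 CPM (-1.53 ± 0.28, adjusted p = 0.00197). *IMD2*, the IMP dehydrogenase of guanine nucleotide synthesis, was at 407, 449 and 392 CPM against 428, 544 and 176 CPM, which was not called (-0.27 ± 0.37, adjusted p = 0.67), and *ioc3*Δ *yaf9*Δ replicate 3 was the low library.

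Chromatin and translation genes were mostly not called. On the list of 9 ISWI and CHD1 remodeler subunits only *IOC3* was called, and *ISW1*, its partner ATPase, was at 97.5, 98.3 and 99.5 CPM in *yaf9*Δ and at 111, 118 and 94.0 CPM in *ioc3*Δ *yaf9*Δ (0.12 ± 0.11, adjusted p = 0.504). *HTZ1* was at -0.10 ± 0.12 (adjusted p = 0.607). *EAF1*, the scaffold of NuA4, rose from 67.8, 64.9 and 62.5 CPM to 116, 108 and 111 CPM (0.77 ± 0.13, adjusted p = 0.00102), as the single call among 13 NuA4 subunits. *BDF1*, a bromodomain subunit of SWR1, was the single call among 14 SWR1 and H2A.Z genes (0.60 ± 0.15, adjusted p = 0.0143), close to the 1.5-fold limit. It fell short of that limit without *ioc3*Δ *yaf9*Δ replicate 1 (0.56) or *ioc3*Δ *yaf9*Δ replicate 2 (0.52). These single calls were 7.69% of the NuA4 list and 7.14% of the SWR1 list, near the 9.70% of all genes called. None of 10 histone genes and none of 81 ribosome biogenesis genes was called by limma, and of the latter 2 were called higher without *ioc3*Δ *yaf9*Δ replicate 3. The histone list still leaned upward, with a median of 0.31 and 9 of 10 members positive. The strains did not overlap for 8 of the 10, against 42.8% of all genes. Summed histone CPM was 5950 to 6436 in *yaf9*Δ and 7132 to 8321 in *ioc3*Δ *yaf9*Δ. Of 138 cytosolic ribosomal protein genes 1 was called. Among Ty elements, 5 of 33 genes were called higher, against 3.53% of all genes. Their copies are nearly identical, and how reads shared between copies were counted is not given in the sources used here. That count was 1 without *ioc3*Δ *yaf9*Δ replicate 1, 3 without *yaf9*Δ replicate 2 and 1 with a pseudocount of 5.

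The same deletion was also made in cells with Yaf9, and the 2 responses are set side by side here. The 2 comparisons share no libraries, and other differences between the strains cannot be told apart from the presence of Yaf9. In *ioc3*Δ against wild type, 703 genes were called (12.2%), 523 higher and 180 lower, so increases were in the majority there and decreases without Yaf9. Of the 204 genes higher in *ioc3*Δ *yaf9*Δ, 123 were also higher in *ioc3*Δ, which was 60.3% of the former and 23.5% of the latter. Of the 357 lower genes 67 were shared, which was 18.8% and 37.2%. Across 5785 genes other than *IOC3* the 2 changes had a Pearson r of 0.419 and a Spearman rho of 0.297, as a description over genes, which are not independent. Several list medians moved the same way in both. With Yaf9 and without it they were 0.81 and 0.52 for the mitochondrial ribosome and -0.53 and -0.96 for complexes II and III. For cytochrome c oxidase and cytochrome c they were -0.52 and -1.05, for the ATP synthase -0.63 and -0.89, and for the methionine list -0.53 and -0.79. Other lists did not, among them the stress list (0.31 and -0.92), the iron list (0.20 and -0.78) and the cytosolic ribosomal protein genes (-0.30 and 0.13). With Yaf9, 66 of 75 mitochondrial ribosome genes were called higher, and 19 without wild-type replicate 2. The drug efflux response was also present in both. *PDR5* was at 425 ± 87.7 CPM (SD, n = 3) in wild type and 3851 ± 723 in *ioc3*Δ, and at 596 ± 50.4 in *yaf9*Δ and 2992 ± 588 in *ioc3*Δ *yaf9*Δ. *RSB1* had log2 changes of 4.16 with Yaf9 and 3.68 without, *CIS1* 2.33 and 2.54, and *ATG40* 2.29 and 2.03, and the difference was not called for any of these 3 (-0.48 ± 0.46, 0.21 ± 0.41 and -0.26 ± 0.23). It was called for *PDR5* (-0.87 ± 0.25, adjusted p = 0.0481) and *PDR15* (-1.02 ± 0.29, adjusted p = 0.0485), which rose less without Yaf9. In all 5 of the 15 drug resistance genes were called below 0 in that test, against 6.12% of all genes. This count was 0 without *ioc3*Δ replicate 3, 1 without *ioc3*Δ replicate 1 or *ioc3*Δ *yaf9*Δ replicate 2, 2 without wild-type replicate 3, *yaf9*Δ replicate 1 or *yaf9*Δ replicate 3, and 3 without *ioc3*Δ *yaf9*Δ replicate 1.

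The difference between the 2 changes, tested as an interaction term in the same fit, was called for 543 genes (9.38%), 189 above 0 (3.27%) and 354 below (6.12%). Among the 204 genes higher in *ioc3*Δ *yaf9*Δ 21 were called in the interaction, 11 of them in the same direction. Among the 357 lower genes 144 were, all in the same direction. The interaction contains the change by which both sets of genes were chosen, so a shared direction was favoured beforehand. The number of interaction calls depended on single libraries, at 181 without *ioc3*Δ replicate 3, 187 without *ioc3*Δ *yaf9*Δ replicate 1, 206 without *yaf9*Δ replicate 1, 295 without *yaf9*Δ replicate 3, 297 without *ioc3*Δ *yaf9*Δ replicate 2, 336 without wild-type replicate 3 and 859 without *ioc3*Δ *yaf9*Δ replicate 3. The stress genes were among the clearest cases. *MSC1* had 37.2 ± 7.85 CPM in wild type and 37.5 ± 12.4 in *ioc3*Δ, a change of -0.02, against -2.58 without Yaf9 (interaction -2.56 ± 0.42, adjusted p = 0.00652). *FIT2* changed by 0.49 with Yaf9 and by -3.22 without (interaction -3.71 ± 0.40, adjusted p = 0.000252). *CTT1*, *GAD1* and *DDR2* had interactions of -2.68, -2.71 and -2.44. On the stress list 16 of 28 members were called below 0 (10 without wild-type replicate 3, *ioc3*Δ replicate 3, *yaf9*Δ replicate 1, *yaf9*Δ replicate 3, *ioc3*Δ *yaf9*Δ replicate 1 or *ioc3*Δ *yaf9*Δ replicate 2). On the iron list 12 of 26 were below 0 and 1 above, and the lower count was 5 without *ioc3*Δ replicate 3 and 6 without *yaf9*Δ replicate 1 or *ioc3*Δ *yaf9*Δ replicate 1.

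Other genes responded differently to the loss of Ioc3 with Yaf9 present than without it, and only some of them were called without it. *LEU1*, the isopropylmalate isomerase of leucine synthesis, stood at 1135 ± 445 CPM for wild type and 150 ± 15.7 for *ioc3*Δ, and at 189 ± 6.56 in *yaf9*Δ and 175 ± 21.1 in *ioc3*Δ *yaf9*Δ (interaction 2.73 ± 0.30, adjusted p = 0.000252). *OAC1*, a mitochondrial carrier used in leucine synthesis, and *BAT1*, the mitochondrial branched-chain aminotransferase, had interactions of 2.35 ± 0.31 (adjusted p = 0.00151) and 1.83 ± 0.26 (adjusted p = 0.00198). The *yaf9*Δ level of *LEU1* was near that of *ioc3*Δ, while *OAC1* was at 89.0 ± 5.39 CPM in *yaf9*Δ and 46.8 ± 8.98 in *ioc3*Δ, and *BAT1* at 416 ± 7.93 and 287 ± 59.1, without overlap. Of the 13 Leu3-controlled genes 5 were called above 0, against 3.27% of all genes. *SPL2* and *PHO5* rose by 3.20 and 2.82 with Yaf9, and by 0.90 and 0.82 without (interactions -2.30 ± 0.43 and -2.00 ± 0.40), and 10 of 20 phosphate genes were called below 0. *PHO84* averaged 136 ± 30.7 CPM in wild type, 1081 ± 229 in *ioc3*Δ, 13.4 ± 2.89 in *yaf9*Δ and 195 ± 145 in *ioc3*Δ *yaf9*Δ, and its log2 changes of 2.99 and 3.52 did not differ beyond their error (0.53 ± 0.65, adjusted p = 0.664). Ribosome biogenesis genes were called above 0 for 42 of 81 members, with medians of 0.12 without Yaf9 and -0.52 with it, and this count was 16 without *ioc3*Δ *yaf9*Δ replicate 1, 17 without *yaf9*Δ replicate 1, 19 without *ioc3*Δ replicate 3, 23 without wild-type replicate 3, 26 without *yaf9*Δ replicate 3 and 27 without *ioc3*Δ replicate 1. Called genes with opposite directions numbered 16. *GDH1*, the main NADP-dependent glutamate dehydrogenase, rose by 0.82 without Yaf9, a call lost when any of the 6 libraries except *ioc3*Δ *yaf9*Δ replicate 3 was left out, and fell by 0.99 with it (interaction 1.81 ± 0.44, adjusted p = 0.028). The other 15 fell without Yaf9 and rose with it, among them the transketolase *TKL2* (-0.75 and 1.94) and *TIS11* (-1.23 and 1.25). Without Yaf9 the *TKL2* call was lost when any of the 6 libraries except *ioc3*Δ *yaf9*Δ replicate 3 was left out (adjusted p 0.130 to 0.337).

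**Figure D4:**
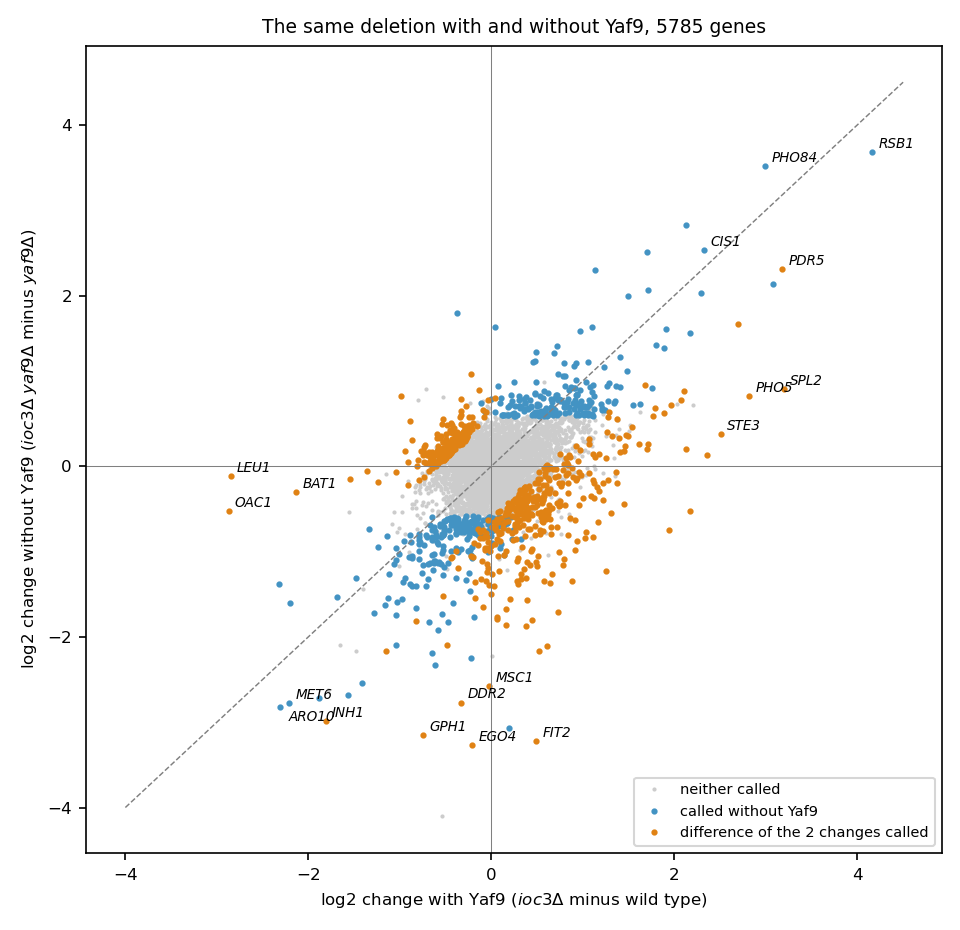
Log2 change of each gene upon *IOC3* deletion in cells without Yaf9 (vertical) against that in cells with Yaf9 (horizontal), for 5785 genes other than *IOC3*; blue points were called without Yaf9, orange points were called for the difference of the 2 changes whether or not they were called without Yaf9, grey points for neither, and the dashed line marks equal changes. *RSB1*, *PHO84* and *CIS1* lie near the line, *MSC1*, *DDR2* and *FIT2* lie far below 0 on the vertical axis only, and *LEU1* lies far to the left at a vertical value near 0.

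Deleting *IOC3* was compared with truncating its HLB domain, both without Yaf9. The 2 strains share the *yaf9*Δ libraries as control, so they were set against each other directly. In *ioc3*Δ *yaf9*Δ against *ioc3*Δ*cHLB* *yaf9*Δ 278 genes were called (4.80%), 160 higher (2.77%) and 118 lower (2.04%) in *ioc3*Δ *yaf9*Δ. This number was 31 without *ioc3*Δ *yaf9*Δ replicate 1, 36 without *ioc3*Δ*cHLB* *yaf9*Δ replicate 2, 56 without *ioc3*Δ*cHLB* *yaf9*Δ replicate 3, 170 without *ioc3*Δ *yaf9*Δ replicate 2 and 647 without *ioc3*Δ*cHLB* *yaf9*Δ replicate 1. *IOC3* itself was at 43.0 ± 5.67 CPM in *ioc3*Δ*cHLB* *yaf9*Δ and 0.0453 ± 0.0785 in *ioc3*Δ *yaf9*Δ. Some of the drug resistance genes were among the largest differences. On that list 7 of 15 were called higher and 1 lower, against 2.77% and 2.04% of all genes, with a median of 0.35. The higher count was 5 or 6 without any 1 library. *PDR5* had 592 ± 69.6 CPM in *ioc3*Δ*cHLB* *yaf9*Δ, close to 596 ± 50.4 in *yaf9*Δ, and 2992 ± 588 in *ioc3*Δ *yaf9*Δ (direct difference 2.32 ± 0.18, adjusted p = 1.01e-06). *RSB1* (2.87 ± 0.32, adjusted p = 0.00013), *CIS1* (2.70 ± 0.29, adjusted p = 7.32e-05), *PDR15* (1.53 ± 0.21, adjusted p = 0.000741) and *ATG40* (1.84 ± 0.16, adjusted p = 8.29e-06) were likewise higher in *ioc3*Δ *yaf9*Δ, and the 3 *ioc3*Δ*cHLB* *yaf9*Δ libraries of each were below all 3 *ioc3*Δ *yaf9*Δ libraries. So were *PHO84* (3.10 ± 0.46, adjusted p = 0.00177) and *OSI1* (2.12 ± 0.32, adjusted p = 0.00177). *HXT2* was lower in *ioc3*Δ *yaf9*Δ (-1.69 ± 0.28, adjusted p = 0.00373), with 654 ± 62.4 CPM in *ioc3*Δ*cHLB* *yaf9*Δ, and *INH1* was as well (-1.69 ± 0.26, adjusted p = 0.00244). The glucose transporters *HXT7* (-2.32 ± 0.66, adjusted p = 0.0598) and *HXT4* (-1.95 ± 0.50, adjusted p = 0.0459) and the respiratory growth gene *RGI1* (-1.76 ± 0.45, adjusted p = 0.0459) were also called lower. Their calls were lost without *ioc3*Δ *yaf9*Δ replicate 1, *ioc3*Δ *yaf9*Δ replicate 2, *ioc3*Δ*cHLB* *yaf9*Δ replicate 2 or *ioc3*Δ*cHLB* *yaf9*Δ replicate 3 (0.107 to 0.234).

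For other genes the difference between the 2 mutants was not called. *INA1* was at 172 ± 42.8 CPM in *yaf9*Δ, 690 ± 240 in *ioc3*Δ*cHLB* *yaf9*Δ and 1010 ± 347 in *ioc3*Δ *yaf9*Δ, and its direct difference was not called (0.53 ± 0.39, adjusted p = 0.44). *PRM2* (0.54 ± 0.27), *FAA4* (0.49 ± 0.41), *FIT2* (-0.68 ± 0.28), *MSC1* (-0.64 ± 0.30) and *DDR2* (-0.41 ± 0.37) were not called in the direct comparison either. They were called there for *PRM2* without *ioc3*Δ*cHLB* *yaf9*Δ replicate 1 (0.92, adjusted p = 0.0119), and without *ioc3*Δ *yaf9*Δ replicate 3 for *MSC1* (adjusted p = 0.0563) and *DDR2* (-0.96, adjusted p = 0.0711). Against *yaf9*Δ, *FIT2* was at -2.54 in *ioc3*Δ*cHLB* *yaf9*Δ and -3.22 in *ioc3*Δ *yaf9*Δ, and *MSC1* at -1.94 and -2.58. Some larger decreases in *ioc3*Δ *yaf9*Δ passed the direct test with all libraries but not without some of them. *MET6* (-1.30 ± 0.28, adjusted p = 0.0275) lost its call without *ioc3*Δ *yaf9*Δ replicate 1, *ioc3*Δ*cHLB* *yaf9*Δ replicate 2 or *ioc3*Δ*cHLB* *yaf9*Δ replicate 3 (0.107 to 0.166), and *ARO10* (-1.14 ± 0.26, adjusted p = 0.0308) without *ioc3*Δ *yaf9*Δ replicate 1 or *ioc3*Δ*cHLB* *yaf9*Δ replicate 2 (0.164 to 0.173). Of 75 mitochondrial ribosome genes 60 were called higher in *ioc3*Δ *yaf9*Δ than in *ioc3*Δ*cHLB* *yaf9*Δ (against 2.77% of all genes), with a median difference of 0.76. That count was 1 without *ioc3*Δ *yaf9*Δ replicate 1, 1 without *ioc3*Δ*cHLB* *yaf9*Δ replicate 2, 2 without *ioc3*Δ*cHLB* *yaf9*Δ replicate 3, 26 without *ioc3*Δ *yaf9*Δ replicate 2 and 33 without *ioc3*Δ *yaf9*Δ replicate 3, and 14 at an adjusted p under 0.05. Their summed CPM was 11230 to 12800 in *ioc3*Δ *yaf9*Δ, 8363 to 8823 in *yaf9*Δ and 6571 to 8756 in *ioc3*Δ*cHLB* *yaf9*Δ.

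**Figure D5:**
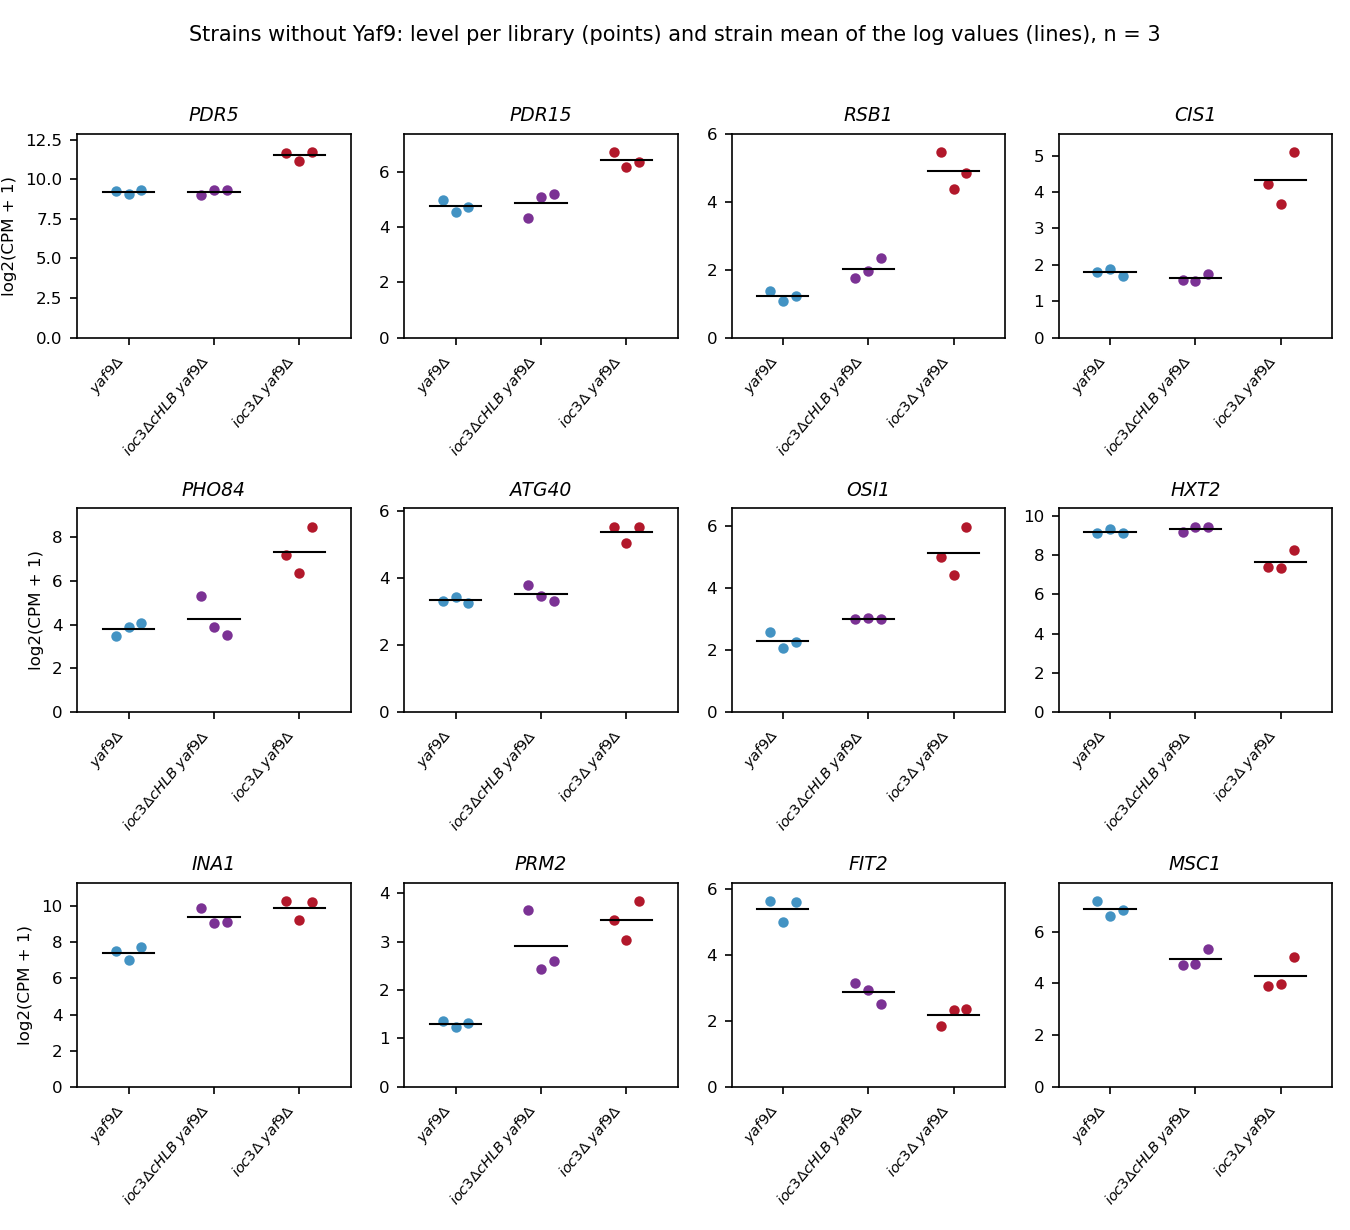
Transcript level in log2(CPM + 1) of 12 genes in each library of *yaf9*Δ, of the truncation (*ioc3*Δ*cHLB* *yaf9*Δ) and of the full deletion (*ioc3*Δ *yaf9*Δ); points are libraries and lines are strain means of 3. *PDR5*, *PDR15*, *RSB1*, *CIS1*, *ATG40* and *OSI1* are high only in the *ioc3*Δ *yaf9*Δ libraries, with *PDR5* at 2992 CPM there and 592 CPM in the truncation, whereas *INA1*, *PRM2*, *FIT2* and *MSC1* are displaced from *yaf9*Δ in both mutants.

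Genes beside the 2 deleted loci were checked one by one. *MIC19*, *DCV1* and *CMK1* on either side of *IOC3* were not called (-0.21, -0.18 and 0.31), nor was *GSY1* (0.29 ± 0.93), a glycogen synthase whose *ioc3*Δ *yaf9*Δ libraries were at 13.5, 12.8 and 2.70 CPM. Beside *YAF9*, *NOP15* (0.15) and *INP52* (0.16) were not called, while *LEU4* fell by 0.82 ± 0.17 (adjusted p = 0.00547). With Yaf9 present *LEU4* also fell, by 1.14 ± 0.17 (adjusted p = 0.000422), and its interaction was not called (0.32 ± 0.24, adjusted p = 0.438). *YNL108C*, the gene next to *YAF9* on its 5′ side and of unknown function, was at 50.4, 41.1 and 44.9 CPM in *yaf9*Δ and at 12.9, 18.6 and 22.5 CPM in *ioc3*Δ *yaf9*Δ (-1.32 ± 0.17, adjusted p = 0.000114). Its mean was 43.5 ± 3.25 CPM in wild type, 40.1 ± 3.58 in *ioc3*Δ and 47.1 ± 8.45 in *ioc3*Δ*cHLB* *yaf9*Δ, so *ioc3*Δ *yaf9*Δ was the only 1 of these 5 strains where it was low (interaction -1.20 ± 0.24, adjusted p = 0.0148; direct difference from *ioc3*Δ*cHLB* *yaf9*Δ -1.36 ± 0.17, adjusted p = 0.000425). Whether the *YAF9* deletion has the same ends in these strains was not tested. Over the 16 chromosomes the median change lay between -0.04 and 0.06, and the share of genes called was lowest on chromosome VI (5.98%) and highest on chromosome XII (14.0%).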

How the data were processed

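RNA was measured in 18 libraries, 3 from each of 6 strains, and the strain and replicate number of each were read from its label. The 6 libraries of *yaf9*Δ and *ioc3*Δ *yaf9*Δ form the main comparison. By the submitters' processing notes, reads were aligned to sacCer3 with TopHat2 2.0.10 and Bowtie2 2.0, counted with HTSeq and processed in R 3.1.0 with edgeR 3.6.2 and limma 3.20.4. The authors deposited CPM per gene, a linear signal scaled to an effective library size, with each library in its own column. The deposited table held 5830 genes, of which 5634 matched the RefSeq annotation by systematic name. A further 4 lines had been emptied and are not analysed here. In each library 100% of the genes had a value that corresponds to an integer number of reads (tolerance 0.01 reads), from which the reads were recovered.

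The main test was limma 3.58.1 in R 4.3.3 with its trend option, run on log2(CPM + 1) for genes at 1 CPM or more in at least 3 libraries. The fit held all 18 libraries with 1 mean per strain. Benjamini-Hochberg adjustment covered all tested genes of a comparison, and fold changes on this scale understate the change of weakly expressed genes. Every adjusted p is from limma unless another tool is named. Errors of log2 changes are standard errors, and those of CPM are SDs. P-values measure the spread between cultures, as the labels name them. Statistics were tested on simulated data. The study's thresholds (adjusted p under 0.1, 1.5-fold) were used. On the recovered reads edgeR 4.0.16 called 608 genes and DESeq2 1.42.0 called 604. Other alternatives were the pseudocount, no filter on low values, median-of-ratios scaling, array weights, only the compared groups, a replicate block, a stricter p and leaving out each library.

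Same-numbered *yaf9*Δ and *ioc3*Δ *yaf9*Δ libraries deviated from their strain means with correlations of -0.17, 0.08 and -0.06, so the numbers did not pair them. For wild type and *ioc3*Δ the correlations were 0.21, 0.21 and 0.11, which passes the rule used (over 0.1 for every pair). Of the differently numbered pairs, wild-type replicate 1 with *ioc3*Δ replicate 3 was at 0.30 and wild-type replicate 3 with *ioc3*Δ replicate 2 at 0.14. The rest lay between -0.44 and 0.06. The rule therefore does not settle whether the numbers pair these libraries, and the replicate block gave 700 calls there against 703.

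Named genes were the targeted genes and 10 others always followed, the 2 genes on each side of *IOC3* and *YAF9*, the 15 largest increases and decreases among called genes with a standard symbol, at least 5 CPM and no overlap between strains, up to 4 called members of each list, and the 5 largest each way for the interaction and the truncation. Others are named only as list members with their value, or as chosen after their values were seen. Not every gene that the rule allows is described, and 1 is not reported here. The members and gene lists were chosen with earlier results of these data known. Ty element genes were taken by their RefSeq product. Motifs were counted on both strands in RefSeq sequence of the same build as the files, in 5631 windows from 400 to 101 bases before the start codon.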

Additional observations from a re-analysis of the deposited data

Results flagged for a closer look

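The effect of the *IOC3* deletion differed between cells with and without Yaf9 for 543 genes by the interaction test in limma, and 38 genes named or followed here were among them. Each value that follows is the log2 change without Yaf9 minus that with Yaf9. Stress and carbohydrate genes had negative differences, with *CTT1* at -2.68, *GAD1* at -2.71, *TDH1* at -2.70, *MSC1* at -2.56, *DDR2* at -2.44, *TKL2* at -2.68, *GPH1* at -2.40 and *ALD3* at -2.02. *EGO4*, of unknown function, was at -3.06. Iron genes were negative too, with *FIT2* at -3.71, *FIT3* at -1.63, *FET3* at -1.36, *TIS11* at -2.48, *FRE1* at -1.93 and *ARN1* at -1.58. Phosphate genes were at -2.30 (*SPL2*), -2.00 (*PHO5*) and -1.23 (*PHM6*). *STE3*, the a-factor receptor of alpha cells, was at -2.13, with 12.1 ± 2.41 CPM (SD, n = 3) in *ioc3*Δ, 1.29 ± 0.378 in wild type and 1.78 ± 1.20 in *ioc3*Δ *yaf9*Δ. The drug pump genes *PDR5* and *PDR15* were at -0.87 and -1.02, with increases of 3.18 and 2.69 with Yaf9 against 2.31 and 1.67 without, and *PDR3* and *PDR10* at -0.72 and -0.78. The remaining negative differences were -1.20 for *YNL108C*, -1.18 for *INH1*, -1.20 for *COX5B*, -0.99 for *MET3*, -1.01 for *ARO9*, -1.17 for the cell wall gene *CWP1* and -0.64 for the pheromone-regulated *PRM10*. Positive differences were found for genes of leucine and glutamate metabolism, with *LEU1* at 2.73, *OAC1* at 2.35, *BAT1* at 1.83, *GDH1* at 1.81 and the malic enzyme *MAE1* at 1.42. *EAF1* was at 0.81, *URA3* at 0.75 and the ribosome biogenesis gene *NOP15* at 0.69.

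For *FRE1*, *PDR3*, *PDR10*, *EGO4*, *TDH1*, *GPH1*, *INH1*, *PDR5*, *PDR15*, *FET3*, *MET3*, *COX5B*, *ARO9*, *PRM10*, *CWP1*, *NOP15* and *URA3* the call was lost when 1 of certain libraries was left out, and *PHM6* was not called by edgeR (adjusted p = 0.292) or DESeq2 (adjusted p = 0.395) on reads.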

How the results depend on the processing

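The main count of 561 called genes ran from 320 to 700 when 1 library was left out, the higher genes from 101 to 219 and the lower genes from 219 to 481. The lowest value came each time without *ioc3*Δ *yaf9*Δ replicate 1 and the highest without *ioc3*Δ *yaf9*Δ replicate 3. With a pseudocount of 5, 126 genes were called higher. The replicate block gave 562 calls, and it gave 549 for the interaction, 295 for the full deletion against the truncation and 700 with Yaf9 present. Interaction calls (543) ran from 181 to 859 without 1 library, and were 1195 with array weights and 300 at an adjusted p under 0.05. Calls of the deletion against the truncation (278) ran from 31 to 647, and were 163 with only the compared groups in the fit, 802 with array weights and 126 at an adjusted p under 0.05. The deletion with Yaf9 present gave 591 to 745 calls without 1 library.

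Over 196 gene changes and 3364 alternative values, 3050 stayed on the same side of the threshold, 282 lost the call, 24 gained it and 8 changed sign. Those 8 were in genes that were not called: *IMD2* (-0.27) was at 0.035 with array weights and ran from -0.59 to 0.22 without 1 *ioc3*Δ *yaf9*Δ library, and *GSY1* (0.29) ran from -0.052 (without *ioc3*Δ *yaf9*Δ replicate 1) and -0.02 (without replicate 2) to 0.93 (without replicate 3). *AFT1* (-0.04) ran from -0.15 to 0.064 (without *ioc3*Δ *yaf9*Δ replicate 3), and *MET28* (0.01) was at -0.17 with array weights, -0.089 without *yaf9*Δ replicate 1, and ran from -0.12 (without *ioc3*Δ *yaf9*Δ replicate 3) to 0.12 (without *ioc3*Δ *yaf9*Δ replicate 1). Of 1184 values of list counts, 169 moved by more than 1.5 times. Under the block *TIP1* was not called (adjusted p = 0.102). Array weights gave 34 mitochondrial ribosome genes higher. The cause of these shifts was not tested, but leaving out a library leaves 2 samples in a strain. With 3 libraries per strain and 1 read worth 0.123 to 0.156 CPM, genes near 1 CPM, such as *DAN1* in *ioc3*Δ *yaf9*Δ, rest on few reads.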

Other observations

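Some named genes were adjacent on the chromosome. *PDR5* and *ATG40* are transcribed divergently on chromosome XV with 1551 bases between them, and rose by 2.31 and 2.03 on the log2 scale. *PDR15* lies 772 bases from *MRP20* on chromosome IV, with both on the same strand, and they rose by 1.67 and 0.89. *HOP1* and *SPO22*, divergent on chromosome IX with 647 bases between them, rose by 1.21 and 1.32. *ALD4* and *GDH1*, which converge on chromosome XV with 278 bases between them, went in opposite directions (-2.33 and 0.82), as did *SPL2* and *ARO9* on chromosome VIII (0.90 and -2.16), divergent with 608 bases between them. These pairs were picked after their values were seen, and the number of such pairs among all genes was not counted.

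Among 280 genes within 30000 bases of a chromosome end, 27 were called higher (9.64%, against 3.53% of all genes) and 27 lower (9.64%, against 6.17%), with a median change of 0.00 on the log2 scale. The count of higher genes was 15 without *yaf9*Δ replicate 1, 17 without *yaf9*Δ replicate 2 and 17 without *ioc3*Δ *yaf9*Δ replicate 1.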
